A study of Mus musculus with 6 samples.

Results

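Occupancy of Ezh2 in Th1 cells was read from 3 of the 6 libraries of the series, namely the Ezh2 pull-down, the control antibody pull-down and the input DNA of the Th1 culture, with 1 library each. The libraries were chosen by their labels. The cells were CD4+ T cells of C57BL/6 mice, purified from spleen in the naive state (CD44low CD62Lhigh). They were kept for 5 days under Th1 conditions, with IL-2, IL-12 and an antibody to IL-4. Antibodies to TCRβ and CD28 were present for the first 2 days and absent for the last 3. The Ezh2 pull-down used a polyclonal antibody from Diagenode, and the control pull-down used rabbit IgG. In the Th2 culture of the series, IL-4 and an antibody to IFN-γ took the place of IL-12 and the antibody to IL-4. Its Ezh2 and input libraries serve here only for a few values set beside those of Th1. The labels do not say how many mice or cultures stood behind a library. No expression was measured, so the Th1 label was not checked against transcripts.

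Ezh2 is the enzyme of Polycomb repressive complex 2, which methylates a lysine in the tail of a core histone at genes that are kept silent. The complex is known to cover genes of developmental regulators in broad domains and to favour DNA rich in unmethylated CG dinucleotides. In helper T cells, Gata3 encodes the factor that directs Th2 differentiation, and Tbx21 encodes T-bet, which directs Th1 differentiation. Ifng encodes interferon-γ, the main Th1 cytokine. Il4, Il13 and Il5 encode the Th2 cytokines, and Rad50, a DNA repair gene between Il13 and Il5, harbours a control region for them.

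The promoters of these genes differ in CG content, the sequence feature that Polycomb complexes are known for, and are shown for that reason. Each line gives the 250 bases before the most upstream start in the RefSeq table of GRCm38.p6, in the direction of the gene, with every CG dinucleotide in capitals. The table held 6 of the 7 genes, and Rad50 was the other. The deposited positions are in the build mm9, so these sequences were matched by gene symbol only, and no position of GRCm38.p6 was carried over to the reads.
Gata3: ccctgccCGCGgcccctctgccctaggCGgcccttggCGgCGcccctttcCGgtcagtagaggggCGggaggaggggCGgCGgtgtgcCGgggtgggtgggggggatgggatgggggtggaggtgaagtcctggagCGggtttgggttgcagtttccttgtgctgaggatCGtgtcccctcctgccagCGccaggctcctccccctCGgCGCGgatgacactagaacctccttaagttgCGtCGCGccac
Tbx21: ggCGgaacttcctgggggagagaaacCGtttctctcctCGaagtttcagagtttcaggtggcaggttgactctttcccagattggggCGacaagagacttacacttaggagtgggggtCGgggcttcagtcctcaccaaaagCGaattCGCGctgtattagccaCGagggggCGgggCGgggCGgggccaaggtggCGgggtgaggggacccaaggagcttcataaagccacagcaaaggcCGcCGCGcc
Ifng: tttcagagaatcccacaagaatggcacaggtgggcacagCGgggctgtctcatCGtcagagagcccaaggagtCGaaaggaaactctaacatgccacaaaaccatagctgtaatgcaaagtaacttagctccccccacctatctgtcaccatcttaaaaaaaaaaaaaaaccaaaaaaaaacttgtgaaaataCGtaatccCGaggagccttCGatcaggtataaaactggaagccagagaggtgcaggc
Il4: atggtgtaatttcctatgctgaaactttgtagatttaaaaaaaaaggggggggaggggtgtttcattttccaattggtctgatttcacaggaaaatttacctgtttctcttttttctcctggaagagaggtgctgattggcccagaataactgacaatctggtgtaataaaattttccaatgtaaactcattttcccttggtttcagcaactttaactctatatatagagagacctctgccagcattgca
The Gata3 promoter held 19 CG dinucleotides and that of Tbx21 held 16. Of the 32851 promoters in the table, 19.7% held at least as many as Gata3 and 25.4% at least as many as Tbx21, and the median was 6. The Ifng promoter held 6, that of Il13 held 3, that of Il5 held 2 and that of Il4 held 0. CG dinucleotides read the same on both strands, so 1 count covers both.

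The Ezh2 library held 10809666 distinct positions on chromosomes 1 to 19 and X, the input 15578675 and the control antibody 9326717. A position is 1 genomic interval, counted once however many reads shared it. Reads per position were 2.25 in the Ezh2 library, 1.67 in the control antibody and 1.3 in the input. Fold values below are ratios of positions scaled by these totals. Intervals are exact (Clopper-Pearson) at 95% and cover counting error only, since reads carried no molecular identifiers and no group had a second library. All tests compare these libraries and not repeated cultures.

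At Gata3, Ezh2 lay over a block of 19 kb. The window read for the locus, chr2:9770001-9830000 (mm9), held 937 Ezh2, 513 input and 346 control antibody positions. Ezh2 was 2.63-fold over input there (2.36 to 2.94), where the control antibody was 1.13-fold (0.980 to 1.29). Of all windows of 60 kb, 1.07% had a higher fold than Gata3, and 2.71% stood at 2-fold or more. Within the window, the called bins lay in 1 block. From chr2:9802001 to 9821000, 17 of 19 bins of 1 kb were called, and no bin outside that block was called. A bin was called where Ezh2 was at least 2-fold over input at an adjusted p below 0.05 (one-sided exact binomial test, Benjamini-Hochberg over all bins tested). Of all tested bins, 0.992% were called in this way.

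In the bins of the Gata3 block, the Ezh2 library held between 13 and 63 positions, with a median of 34. The input held between 1 and 13, with a median of 9, and the control antibody between 0 and 14, with a median of 7. The 32 bins of the window that precede the block held between 3 and 16 Ezh2 positions, with a median of 6, beside an input median of 9. The 9 bins after the block held between 2 and 15, with a median of 9, beside an input median of 9. These counts are not scaled, and the input library was the larger. By scaled positions, the window without the block stood at 1.22-fold over input (1.04 to 1.43), so some excess lay outside the block. The call for high Ezh2 set the limits of the block, so the gap between the block and the bins around it is a description. Over the whole block Ezh2 was 5.51-fold over input (4.64 to 6.56), on 646 against 169 positions, and the control antibody was 1.22-fold. In the 3 segments of 10 kb that make up the first part of the window, Ezh2 was 0.848-fold, 1.35-fold and 0.961-fold over input, and each interval spanned 1. The fourth and the fifth segment stood at 5.18-fold (4.10 to 6.59) and 5.00-fold (3.94 to 6.41). The sixth, from chr2:9820001 to 9830000, was at 2.19-fold (1.60 to 3.03).

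The block at Gata3 was long, but its fold was low among called regions of at least 10 kb. Of the 213 such regions in the Th1 library, 53 were longer and 19 had a lower fold. Their median fold over input was 8.37, where the block stood at 5.51. Its surroundings differed by side. The nearest region of at least 3 kb on the side of lower coordinates ended 5129 kb before the window. On the other side, the nearest began 458 kb after it, at chr2:10288001-10295000, with Ezh2 7.83-fold over input (5.79 to 10.8).

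**Figure D1:**
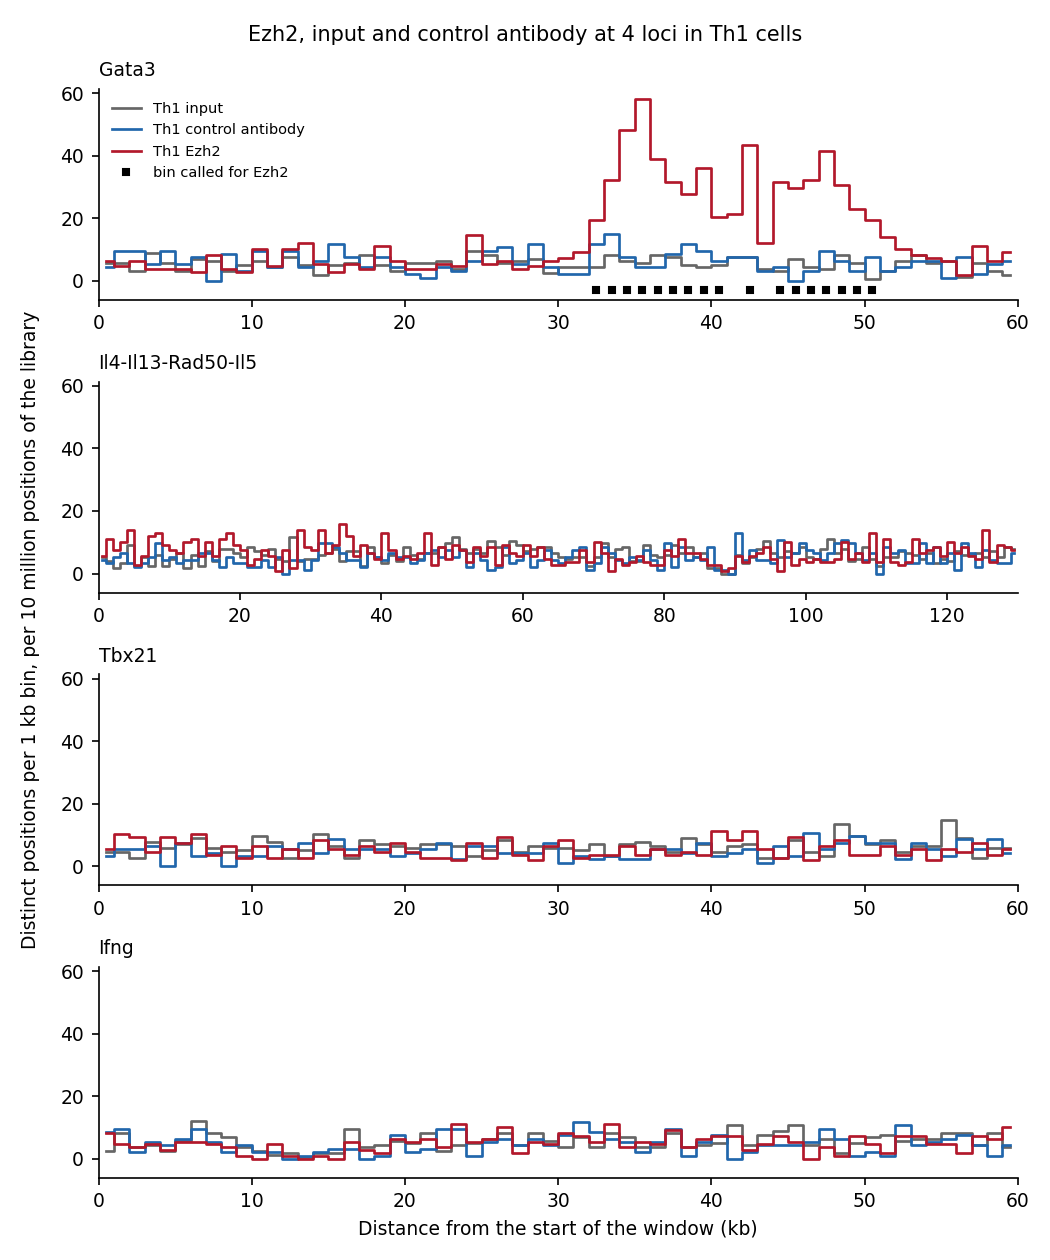
Distinct positions per 1 kb bin (vertical axis, scaled by library totals) across the windows of Gata3, Il4-Il13-Rad50-Il5, Tbx21 and Ifng (horizontal axis, kb from the start of the window) for the 3 Th1 libraries; black squares mark called bins. Called bins occur in the 19 kb block at Gata3, where the highest bin held 63 positions before scaling, and in none of the other 3 windows.

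The window of the Th2 cytokine genes showed only a slight excess of Ezh2 over input in the Th1 library. The window of Il4-Il13-Rad50-Il5, chr11:53415001-53545000, held 936 Ezh2, 1204 input and 626 control antibody positions. Ezh2 was 1.12-fold over input (1.03 to 1.22), and 0 of 119 tested bins were called. The control antibody was at 0.868-fold of input (0.787 to 0.957). Relative to the control antibody, Ezh2 was at 1.29-fold (1.16 to 1.43), an interval above 1. Since 32.5% of all windows of 130 kb held a called bin, a count of 0 is the usual one. By the two-sided exact binomial test, adjusted over all windows of 130 kb, the fold over input differed from 1 (adjusted p = 0.0209). However, 52.8% of all such windows passed that test in either direction, and 37.4% had a higher fold. By its fold over input the locus therefore did not stand out. Of the windows of 130 kb, 2.12% reached 2-fold.

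Within the cytokine locus the Ezh2 signal was uneven. In GRCm38.p6, RefSeq orders the protein-coding genes of this stretch, by rising coordinates, as Kif3a, Il4, Il13, Rad50, Il5 and Irf1, so the start of the window is the side of Il4. The first 10 kb stood at 2.17-fold over input (1.57 to 3.02), on 98 against 65 positions, and at 1.92-fold over the control antibody (1.33 to 2.81). The next 10 kb stood at 1.66-fold over input (1.23 to 2.26) and 1.99-fold over the control antibody (1.37 to 2.93). Of all segments of 10 kb in the genome, 2.45% had at least the fold of the first and 6.83% at least that of the second. The other 11 segments ranged from 0.684-fold to 1.55-fold over input. The lowest was from chr11:53485001 to 53495000, with 47 Ezh2 and 99 input positions. The 3 neighbouring bins with the highest fold, from chr11:53416001 to 53419000, held 31 Ezh2 and 14 input positions. At this depth no bin of the locus passed the call, so the excess on the side of Il4 rests on sums over 10 kb. The nearest called region of at least 3 kb was 120 kb away on that side, at chr11:53289001-53295000 with 7.0-fold (5.15 to 9.70).

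With scaling by library totals, no enrichment of Ezh2 over the window of Tbx21 was detectable in the Th1 library. The windows of Tbx21 and Ifng were placed at the known mm9 positions of the genes and were not checked against an annotation of that build. The Tbx21 window, chr11:96940001-97000000, held 356 Ezh2, 589 input and 279 control antibody positions. Ezh2 stood at 0.871-fold of input (0.762 to 0.995) and the control antibody at 0.791-fold (0.684 to 0.914). Relative to the control antibody, Ezh2 was at 1.10-fold (0.939 to 1.29), so both pull-downs were slightly below input. Of 56 tested bins, 0 were called, and 36 lay below the input (14 of 56 at Gata3, 54 of 119 at the cytokine locus, 24 of 46 at Ifng). A called bin was present in 18.2% of all windows of 60 kb, so a count of 0 does not set this window apart, and 83.1% of such windows had a higher fold. Single bins held between 2 and 12 Ezh2 positions, with a median of 6, against 4 to 23 in the input, with a median of 10. The 6 segments of 10 kb ranged from 0.681-fold to 1.23-fold over input. The highest was the first, which also stood at 1.80-fold over the control antibody (1.19 to 2.75), on 75 Ezh2 and 36 control antibody positions. Ezh2 was called close by. A called region of 6 kb, chr11:96877001-96883000, ended 57 kb before the window, with Ezh2 4.92-fold over input (3.74 to 6.54) and the control antibody at 0.516-fold. Within 500 kb on each side of the window, 50 bins were called, where 0.992% of all tested bins were called. Flanks of the same length held 9 called bins at Gata3, 18 at the cytokine locus and 4 at Ifng. The flanks as a whole were 1.52-fold over input at Tbx21 (1.48 to 1.57), 1.17-fold at Gata3, 1.29-fold at the cytokine locus and 1.11-fold at Ifng.

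Ifng showed no detectable enrichment of Ezh2 by this scaling either. Its window, chr10:117850001-117910000, held 322 Ezh2, 529 input and 269 control antibody positions. Ezh2 stood at 0.877-fold of input (0.761 to 1.01), the control antibody at 0.849-fold (0.731 to 0.986), and Ezh2 over the control antibody at 1.03-fold (0.876 to 1.22). Of 46 tested bins, 0 were called, as in most windows of this length, and 81.9% of such windows had a higher fold. The 6 segments of 10 kb ranged from 0.680-fold to 1.20-fold. By the same two-sided exact binomial test over all windows of 60 kb, where 39.3% passed in either direction, neither Ifng (adjusted p = 0.136) nor Tbx21 (adjusted p = 0.0931) passed, and Gata3 did (adjusted p = 2.72e-71).

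On one side, Ifng lay far from any called region of at least 3 kb. On the other, the nearest began 980 kb after the window. No region of at least 3 kb was called from chr10:84230001 to 118890000, a stretch of 34.7 Mb that contains the window. It was the third longest of the 1425 stretches between such regions, whose median was 0.394 Mb. Of its 19415 tested bins, 29 were called. Ezh2 over the whole stretch was at 0.899-fold of input and the control antibody at 1.02-fold. The stretches around the other loci were shorter, with 5.16 Mb before and 0.467 Mb after the block at Gata3, 0.546 Mb around the cytokine locus and 0.417 Mb around Tbx21.

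**Figure D2:**
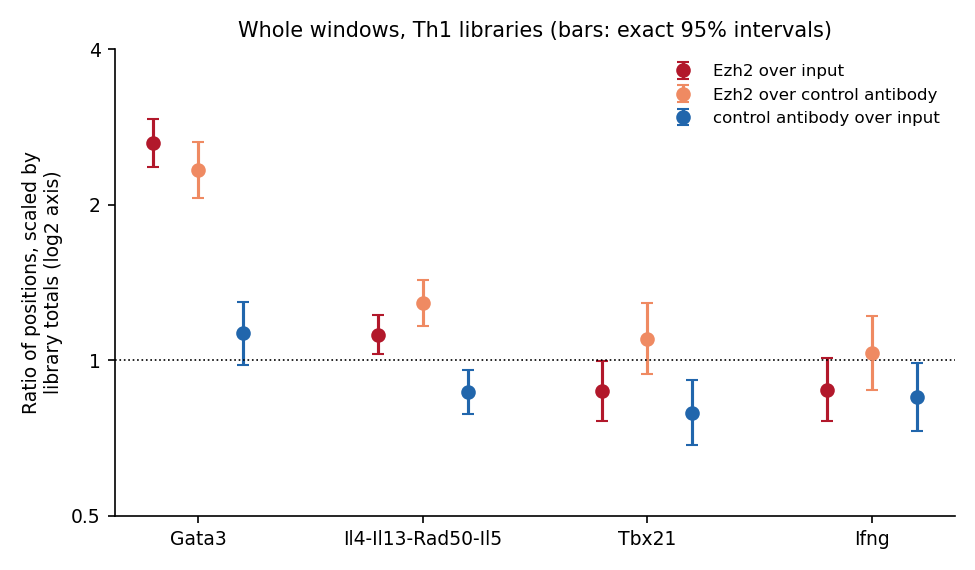
Ratios of positions over the whole window of each locus (vertical axis, log2 scale, scaled by library totals) for Ezh2 over input, Ezh2 over the control antibody and the control antibody over input, with exact 95% intervals. Gata3 is above 2-fold by both denominators, while Tbx21 and Ifng have intervals that include 1 for Ezh2 over the control antibody.

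The loci were compared with each other within the Th1 libraries, in 6 pairs, by the ratio of their folds with an exact conditional interval and by a two-sided Fisher's exact test adjusted over the 6 pairs. Gata3 exceeded Tbx21 3.02-fold (2.54 to 3.60), Ifng 3.0-fold (2.51 to 3.59) and the cytokine locus 2.35-fold (2.04 to 2.70). The largest adjusted p of these 3 by Fisher's exact test was 1.12e-34. With the control antibody as the denominator, these 3 ratios were 2.12 (1.73 to 2.60), 2.26 (1.84 to 2.79) and 1.81 (1.54 to 2.13). Tbx21 and Ifng had a ratio of 0.993 (0.817 to 1.21), an interval that reaches 1.21 (Fisher's exact test, adjusted p = 0.961). The cytokine locus exceeded Tbx21 1.29-fold (1.10 to 1.51; Fisher's exact test, adjusted p = 0.00264) and Ifng 1.28-fold (1.08 to 1.51; Fisher's exact test, adjusted p = 0.00426). With the control antibody as the denominator the ratio to Tbx21 was 1.17, with an interval that includes 1 (0.968 to 1.42), and that to Ifng was 1.25 (1.03 to 1.52). With the input of the Th2 culture as the denominator those 2 ratios had intervals that include 1, at 0.996 (0.838 to 1.18) and 0.997 (0.834 to 1.19).

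Values of the Th2 libraries stand beside these for orientation. Ezh2 over the Th2 input was 1.70-fold at Gata3 (1.52 to 1.91), 0.747-fold at the cytokine locus (0.682 to 0.817), 1.82-fold at Tbx21 (1.61 to 2.06) and 1.17-fold at Ifng (1.02 to 1.35). Relative to Th2, the Th1 fold was 1.55 at Gata3 (1.32 to 1.81, exact conditional test, p = 4.52e-08) and 0.479 at Tbx21 (0.399 to 0.574, exact conditional test, p = 2.73e-16). By the same exact conditional test at a p below 0.05, which covers counting error only, 14.4% of all windows of 60 kb and 19.1% of those of 130 kb differed between Th1 and Th2 in either direction. The Th1 fold relative to Th2 had a median of 1.01 over the windows of 60 kb. Of them, 0.136% had a higher value than Gata3 and 0.00936% a lower one than Tbx21. In the called regions of 20 kb or more, Ezh2 was 12.3-fold over input in Th2, against 9.49-fold in Th1. At Gata3 the excess in Th1 was uneven over the block and the stretch after it. From chr2:9800001 to 9810000 the Th1 fold was 2.71 times that of Th2 (1.89 to 3.87). From chr2:9810001 to 9820000 it was 1.11 times that of Th2 (0.771 to 1.60). From chr2:9820001 to 9830000, a segment mostly past the block with 1 called bin, it was 1.67 times that of Th2 (1.09 to 2.55). On the side of Il4 the first 2 segments of the cytokine locus stood at 0.801-fold and 0.434-fold over input in Th2. The Th1 folds there were 2.71 times (1.68 to 4.39) and 3.84 times (2.41 to 6.11) those of Th2, the highest of the 13 segments. These segments were singled out for their high Th1 fold, so a high ratio to Th2 is partly built in. Before scaling they held 98 and 97 Ezh2 positions in Th1, against 68 and 53 in Th2. Their input positions were 65 and 84 in Th1, against 73 and 105 in Th2, so the inputs also enter these ratios. Cell type, pull-down efficiency and sequencing run cannot be told apart in these differences, with 1 library per group.

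Across the genome, 13220 bins were called in the Th1 Ezh2 library and merged into 5664 regions. By the same rule the control antibody gave 20 called bins, 0.00151% of those tested, and 10 of the 20 were also called for Ezh2. The longest called region, chr15:102739001-102872000, spanned 133 kb and held 7488 Ezh2, 1158 input and 691 control antibody positions, with Ezh2 at 9.32-fold (8.76 to 9.92). The next were chr6:52158001-52230000, of 72 kb at 11.1-fold (10.2 to 12.0), chr2:74485001-74555000, of 70 kb at 11.3-fold (10.3 to 12.4), and chr11:96109001-96172000, of 63 kb at 10.0-fold (9.13 to 11.0). Chromosomes 15, 6, 2 and 11 are the ones that carry the clusters of Hox genes, which set positional identity in the embryo and lie in the best known Polycomb domains. RefSeq places 9, 11, 9 and 10 Hox genes on them, but the genes were not placed on these positions. The fifth longest, chr11:96029001-96070000, lay just before the fourth, spanned 41 kb and stood at 7.95-fold (7.10 to 8.92). Over input, the control antibody ranged from 0.942-fold to 1.06-fold across these 5.

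Broad regions of at least 10 kb were 213 in number, or 3.76% of the regions, and made up 26.6% of the length called. They held 1.66% of the Ezh2 positions (1.65 to 1.67), against 0.188% of the input and 0.184% of the control antibody positions. The call chose these regions for high Ezh2 over input in the same libraries, so these shares and the folds below are a description. The fold of the broad regions over input ranged from 4.38 to 14.1, with a median of 8.37, and the control antibody reached 2-fold in 0 of them. The highest fold was at chr13:55924001-55943000, with 1248 Ezh2 and 128 input positions, at 14.1-fold (11.7 to 17). It was followed by chr8:94880001-94892000 at 13.7-fold (11.0 to 17.1), chr2:71363001-71390000 at 13.4-fold (11.6 to 15.5), chr11:85637001-85661000 at 13.4-fold (11.6 to 15.6) and chr16:94075001-94101000 at 13.3-fold (11.5 to 15.5). The intervals of these 5 overlap, so their order is not resolved. The lowest fold, 4.38 (3.48 to 5.56), was at chr3:96131001-96143000, where 9 of 12 bins were called. In the Th2 libraries, which had no part in the calls, all 213 were at least 2-fold over the Th2 input.

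Because the input entered the call, regions could be called for few input positions as well as for many Ezh2 positions. The control antibody library had no part in the calls and gives a second denominator. The Ezh2 counts remain those that the call selected for being high, so a fold over either denominator can be raised by that choice. In the 53 regions of 20 kb or more, Ezh2 was 9.49-fold over input (9.32 to 9.67) and 9.92-fold over the control antibody (9.69 to 10.2). In the 160 regions of 10 to 19 kb the values were 8.26 and 8.31, and in the 909 regions of 3 to 5 kb they were 5.78 and 5.61. In the 323 regions of 6 to 9 kb they were further apart, at 6.02 (5.93 to 6.12) and 5.40 (5.30 to 5.50), and the control antibody was 1.12-fold over input. In the 3753 regions of a single bin, 66.3% of all regions, Ezh2 was 6.33-fold over input (6.23 to 6.44) but 3.44-fold over the control antibody (3.39 to 3.50). There the control antibody was itself 1.84-fold over input (1.80 to 1.88), and the input held 4.23 positions per kb, against 8.56 over all tested bins. In the Th2 libraries, which had no part in the calls, Ezh2 in the single bins was 2.16-fold over the Th2 input (2.13 to 2.19). In the regions of 20 kb or more it was 12.3-fold there. Reads per position of the Th1 Ezh2 library ranged from 1.99 to 2.15 over the length classes, below the 2.25 of the whole library.

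**Figure D3:**
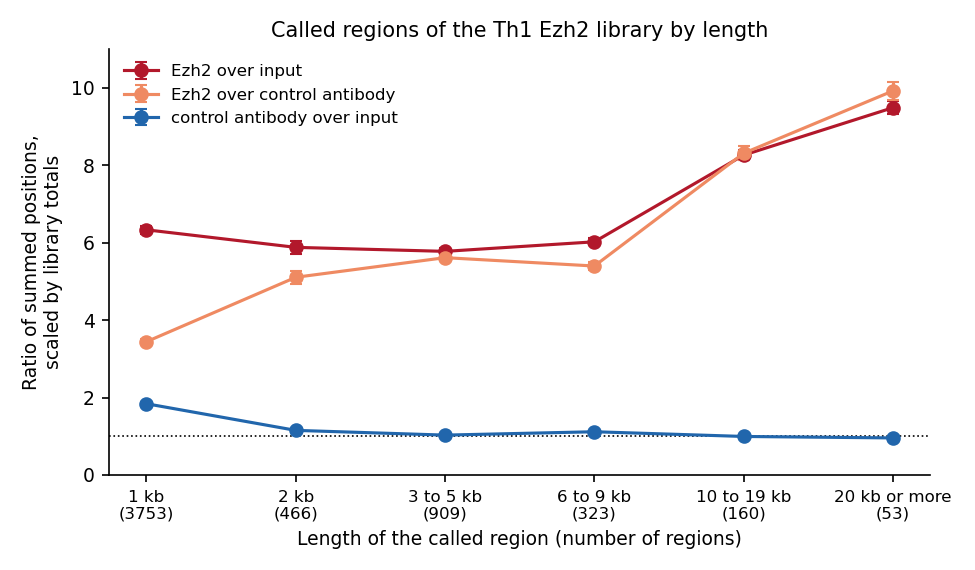
Ratios of positions summed over the called regions of each length class (horizontal axis, with the number of regions; vertical axis, scaled by library totals), with exact 95% intervals. For single bins the denominators give 6.33 and 3.44, and for 6 to 9 kb they give 6.02 and 5.40.

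At the edges of the broad regions, Ezh2 declined from inside to outside. In the fifth kb inside the edge Ezh2 was 9.12-fold over input (8.80 to 9.45) and in the first kb inside it was 5.83-fold (5.59 to 6.07). In the first kb outside it was 2.49-fold (2.39 to 2.59), and at 10 kb outside it was 1.95-fold (1.86 to 2.04). The control antibody was between 0.868-fold and 1.13-fold over input at all of these distances. Other called regions were not left out of the positions outside. Some began within 10 kb of an edge, as chr2:74558001-74592000 did after chr2:74485001-74555000. The values outside therefore do not show how far Ezh2 reached beyond a region. Since the call itself placed the edges, the step between the first kb on each side is partly built in. In the Th2 libraries, which had no part in the call, the same positions gave a gradual slope, with 11.7-fold (11.3 to 12.2) in the fifth kb inside, 5.57-fold (5.35 to 5.80) in the first kb inside, 4.14-fold (3.97 to 4.32) in the first kb outside and 2.22-fold (2.12 to 2.32) at 10 kb outside.

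**Figure D4:**
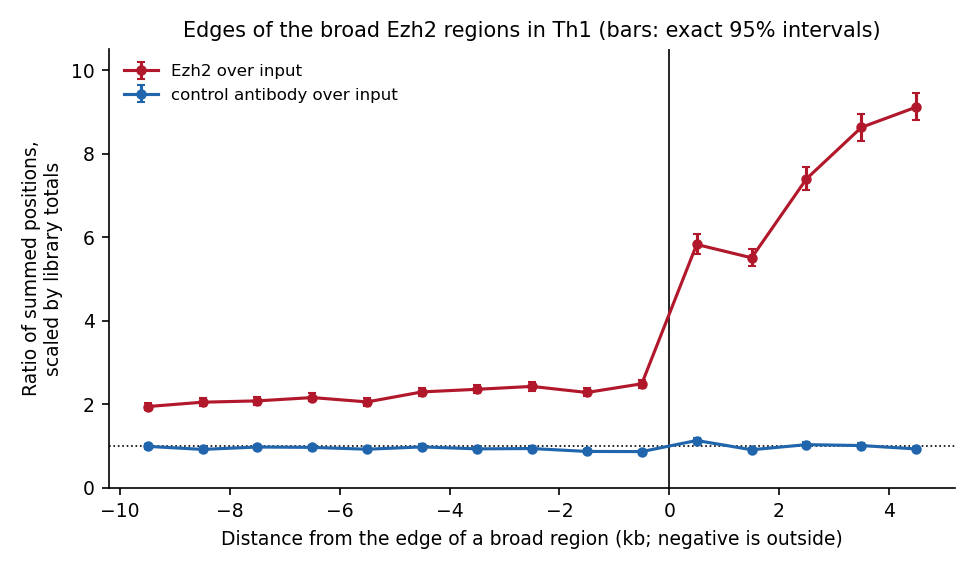
Ezh2 over input and control antibody over input in 1 kb steps from both edges of the 213 broad regions (horizontal axis, negative values outside; vertical axis, ratio of summed positions scaled by library totals), with exact 95% intervals. Ezh2 falls from 9.12-fold in the fifth kb inside to 1.95-fold at 10 kb outside, while the control antibody stays near 1. Positions outside include neighbouring called regions.

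Called bins were spread unevenly over the genome. Chromosome 11, which carries Tbx21 and the cytokine genes, had the largest share of called bins, 1.70%, followed by chromosome 19 with 1.55%. Chromosome 18 had the smallest, 0.556%, and chromosome 10, which carries Ifng, had 0.600%. On chromosome X only 8848 bins had enough positions to be tested, so its 1.04% rests on a small part of it. Of 1342 windows of 1 Mb, 14.8% held no called bin and 51.6% held no region of at least 3 kb, and the median held 4 called bins. The 135 windows with the most called bins held 44.3% of the called bins in those 1342 windows. Windows with too few tested bins were left out of the 1342. The fullest, chr15:102000001-103000000, held 217 called among 933 tested bins. The next 3 were the windows of the long regions on chromosomes 11, 6 and 2, with 161, 111 and 106.

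**Figure D5:**
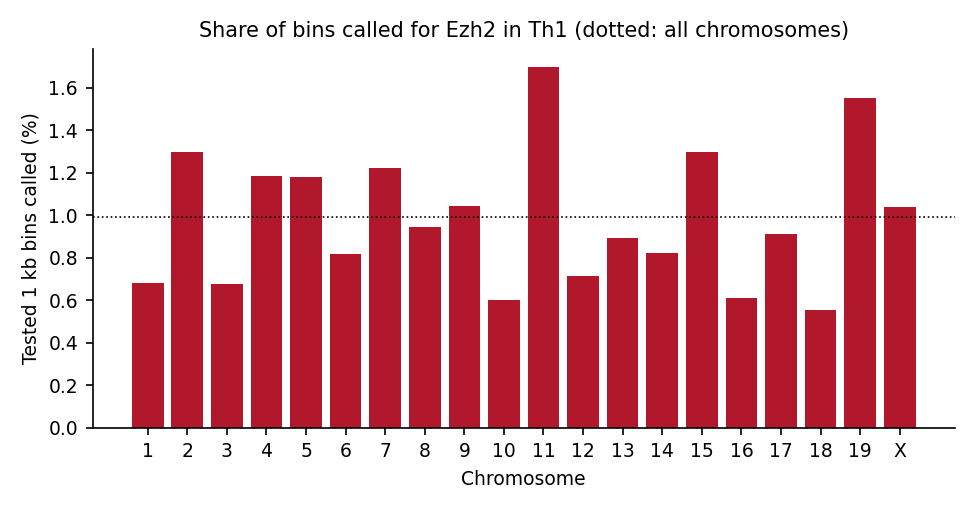
Share of tested 1 kb bins called for Ezh2 in Th1 (vertical axis, percent) by chromosome (horizontal axis), with the share over all chromosomes, 0.992%, as a dotted line. Chromosomes 11 and 19 are highest, and chromosomes 18 and 10 are lowest.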

How the data were processed

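Per the submitters' processing notes, CASAVA was used and positions are in the build mm9; alignment settings and filters are not given in the sources used here. Fragments of 170 to 250 bp were taken from a gel, amplified by PCR for 18 cycles and sequenced for 36 cycles, per the labels' protocols. The deposited values are raw read counts per interval, nearly all of 119 bp and without strand. The authors applied no normalization to them that the files show.

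Each interval was counted once, at its midpoint, in 1 kb bins on chromosomes 1 to 19 and X, which held at least 99.69% of the positions of each library used. A bin entered the test with 10 positions or more summed over the pair of libraries, 0.5 was added to each count for its fold, and called bins separated by no more than 1 uncalled bin formed 1 region. Depth limits what could be called, as the closing section states. Tests were run genome-wide in Python 3.11.15 with SciPy 1.17.1 and were tested on simulated data.

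The windows of Gata3 and the cytokine genes were given in mm9 coordinates with the choice of loci. Those of Tbx21 and Ifng were placed from general knowledge of the genes' mm9 positions and were not checked against an annotation, and gene boundaries inside windows were not placed. For the same reason the planned promoter counts and gene lists were not made. Members, lists and tests were chosen with earlier results of these data known. The planned rule for naming took the 4 loci, the 5 longest regions, the 5 highest folds among regions of at least 10 kb and each region of at least 3 kb in a locus; the lowest fold, the nearest regions and the longest stretch without regions were added after values were seen. The comparison of Th1 with Th2, at the loci and over all windows, was also added then.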

Additional observations from a re-analysis of the deposited data

Results flagged for a closer look

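Ezh2 over input differed between the Th1 and Th2 libraries at each of the 4 loci by an exact conditional interval that leaves out 1 and covers counting error only. The same held for 14.4% of all windows of 60 kb and 19.1% of those of 130 kb. The Th1 fold was 1.55 times that of Th2 at Gata3 (1.32 to 1.81) and 1.5 times at Il4-Il13-Rad50-Il5 (1.32 to 1.70). It was 0.479 times that of Th2 at Tbx21 (0.399 to 0.574) and 0.750 times at Ifng (0.614 to 0.916). Of all windows of the same length, 0.136% had a higher value than Gata3 and 0.0408% a higher one than the cytokine locus. A lower value than Tbx21 was held by 0.00936%, and a lower one than Ifng by 2.19%. The Ezh2 positions alone, scaled by library totals, gave 1.41 at Gata3 (1.29 to 1.55), 1.44 at the cytokine locus (1.31 to 1.58), 0.594 at Tbx21 (0.523 to 0.673) and 0.923 at Ifng (0.799 to 1.06). The inputs alone differed in the opposite direction at Tbx21, at 1.24 (1.09 to 1.41), and at Ifng, at 1.23 (1.07 to 1.41). The difference at Ifng is therefore not seen in the Ezh2 positions alone.

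Outside chromosomes 1 to 19 and X, in sequences the comparisons did not use, 6 of 1317 tested bins were called in the Th1 Ezh2 library, 0.456%, where the control antibody gave 0 of 1296.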

How the results depend on the processing

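Gata3 stayed above input whether the counting, background library, scaling or window was changed. It lay between 2.28-fold with the window widened by 10 kb on each side and 7.07-fold for its highest 3 neighbouring bins. Without its called block, an alternative added after seeing the data, the rest of the window stood at 1.22-fold (1.04 to 1.43). Tbx21 stood at 1.10-fold with the control antibody, 1.08-fold with the Th2 input and 0.902-fold in the wider window, each with an interval that includes 1. Background scaling multiplies each Ezh2 fold by 1.43 by its construction. It gave 1.24-fold at Tbx21 (1.09 to 1.42) and 1.25-fold at Ifng (1.09 to 1.44), intervals above 1. The side of 1 on which Tbx21 and Ifng lie therefore depends on the scaling chosen. The highest 3 bins of a window are chosen for their fold and lay above 1 at each of the 4 loci, at 2.16-fold for Tbx21. They do not bear on the side of 1 of a whole window. The cytokine locus was at 1.08-fold with the Th2 input, with an interval that includes 1. With the control antibody it was at 1.29-fold (1.16 to 1.43), and with background scaling at 1.60-fold (1.47 to 1.74). Its ratio to Tbx21 was 1.17 with the control antibody, with an interval that includes 1, and its ratios to Tbx21 and Ifng were 0.996 and 0.997 with the Th2 input. For the changes with another background library the cause was not tested.

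Counts of called bins, regions and broad regions of at least 10 kb were 71972, 52902 and 490 with all deposited reads, where the control antibody gave 19089 bins. They were 6200, 1951 and 122 at 4-fold or more with an adjusted p below 0.001 (control antibody 3), and 53282, 33390 and 587 with background scaling (control antibody 169). Bins of 2 kb gave 613 broad regions. Shifted bin borders, no minimum of positions, and the control antibody or the Th2 input as background kept each count within 1.5 times. No paired analysis was possible because no group held a second library. Promoter alternatives were not run. Depth limits single bins: tested bins held 6.41 Ezh2 and 8.56 input positions per kb, so a modest excess is detectable only over longer windows.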
